A study of Mus musculus with 8 samples.

Results

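The 10 genes of major histocompatibility complex (MHC) class I antigen presentation described here are the heavy chains H2-K1, H2-D1 and H2-T23, the light chain B2m, the peptide transporter genes Tap1 and Tap2, the loading factor Tapbp, the regulator Nlrc5 and the immunoproteasome subunits Psmb8 and Psmb9. They were chosen by symbol, and all 10 were found among the 56691 genes of the deposited count table. Class I molecules carry short peptides of a cell's own proteins to its surface, where CD8 T cells and natural killer cells read them. The peptides are cut by the proteasome, pumped into the endoplasmic reticulum by the transporter TAP, and loaded there onto a heavy chain bound to beta-2 microglobulin. Neurons are known for low class I levels at rest, and interferons raise the genes of the whole route in many cell types.

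The libraries hold mRNA bound to ribosomes from the ventral tegmental area (VTA), a midbrain region with many dopamine neurons. Male mice carrying a floxed Ogt allele (Ogt flox+/Y, the Ogt knockdown, replicates 2, 3, 4 and 5) were compared with Ogt flox-/Y mice (the control, replicates 3, 4, 5 and 6). Both groups received AAV-TH-Cre, a virus in which the tyrosine hydroxylase promoter drives Cre, and AAV-Flex-NBL10, which depends on Cre and supplies NBL10, an HA-tagged protein through which ribosomes with their mRNA are enriched. Ogt encodes O-GlcNAc transferase, which modifies many nuclear and cytosolic proteins with a single sugar, and the comparison asks which messages change when it is reduced. Strain, age, and whether each library came from its own animal are not given in the sources used here, so the p-values rest on a spread between libraries that could be technical.

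Of the 10 genes, 8 rose in the Ogt knockdown, 0 fell and 2, Tapbp and Nlrc5, did not pass the test. A gene passed when its adjusted p was below 0.05 in edgeR's quasi-likelihood test over all 19912 genes tested, of which 13.4% were higher and 15.1% lower. No gene of the 10 was lower at an unadjusted p below 0.05 either, nor by DESeq2 or limma-voom. The 8 rose between 2.43-fold (B2m) and 4.21-fold (Psmb9). The median log2 fold change of the 10 was 1.496, against 0.002 for all genes tested. In the same 8 genes every knockdown library stood above every control library, which was so for 17.1% of all genes tested, and in 0 of the 10 every knockdown library stood below, as in 18% of all genes. All 8 calls held when any 1 of the libraries was left out. A bulk library cannot tell a change in RNA per cell from a change in the number of cells of a type. Nor can it tell either from a change in how far the tagged ribosomes were enriched over mRNA of other cells, which was not tested.

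The promoters of 5 of the genes are shown because the genes rose together while their starts differ in exact matches to motifs known for class I control. Each window runs from 250 bases before to 50 bases after the start of transcription, 5′ to 3′ on the gene's own strand, from RefSeq on build GRCm38.p6, a build earlier than that of the gene positions given for the counts. Capitals mark matches, on either strand, to GGGGA followed directly by TTCCC (the kappaB site of the class I enhancer), GAAA followed after any 2 bases by GAAA (the core of the interferon-stimulated response element), TGACGC (a CRE-like X2 site), TTCNNNGAA (a GAS element, bound by STAT factors) or CCAAT (the Y box), and no matches overlap.
H2-K1, chr17:34000298-34000597, minus strand: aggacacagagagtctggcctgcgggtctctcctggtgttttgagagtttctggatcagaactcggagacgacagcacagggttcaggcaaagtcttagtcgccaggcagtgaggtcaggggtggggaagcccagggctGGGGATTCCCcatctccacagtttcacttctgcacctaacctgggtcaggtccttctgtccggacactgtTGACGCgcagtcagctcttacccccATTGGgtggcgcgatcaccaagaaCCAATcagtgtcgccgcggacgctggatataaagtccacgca
H2-D1, chr17:35262844-35263143, plus strand: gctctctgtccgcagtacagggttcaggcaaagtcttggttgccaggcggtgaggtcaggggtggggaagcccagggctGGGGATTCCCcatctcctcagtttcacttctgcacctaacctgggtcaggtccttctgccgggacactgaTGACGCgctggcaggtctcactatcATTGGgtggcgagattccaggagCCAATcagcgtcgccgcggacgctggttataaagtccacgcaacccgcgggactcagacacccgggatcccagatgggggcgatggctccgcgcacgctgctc
H2-T23, chr17:36032652-36032951, minus strand: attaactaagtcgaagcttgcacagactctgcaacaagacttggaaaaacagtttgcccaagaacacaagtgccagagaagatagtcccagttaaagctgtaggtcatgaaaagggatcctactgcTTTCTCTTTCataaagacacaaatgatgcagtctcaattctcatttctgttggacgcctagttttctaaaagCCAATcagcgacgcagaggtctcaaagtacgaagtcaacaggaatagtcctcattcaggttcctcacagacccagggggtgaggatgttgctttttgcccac
B2m, chr2:122147437-122147736, plus strand: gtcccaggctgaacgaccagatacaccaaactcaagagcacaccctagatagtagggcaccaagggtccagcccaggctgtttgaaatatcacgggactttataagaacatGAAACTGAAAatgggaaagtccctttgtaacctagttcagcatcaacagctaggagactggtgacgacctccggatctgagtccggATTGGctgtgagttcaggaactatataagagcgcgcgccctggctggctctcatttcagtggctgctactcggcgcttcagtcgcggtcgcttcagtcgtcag
Tap1, chr17:34187306-34187605, plus strand: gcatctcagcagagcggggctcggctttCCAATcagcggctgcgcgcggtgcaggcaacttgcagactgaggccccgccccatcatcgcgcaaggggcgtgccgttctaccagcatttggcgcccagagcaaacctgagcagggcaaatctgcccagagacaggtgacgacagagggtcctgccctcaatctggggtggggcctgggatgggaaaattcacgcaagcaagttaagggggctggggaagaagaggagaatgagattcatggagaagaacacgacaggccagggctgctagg

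The windows of H2-K1 and H2-D1 both held the kappaB motif, which 0.107% of all 32851 promoter windows in the table hold, and both held TGACGC (7.4% of all windows). In H2-K1 these matches began 111 and 41 bases before the start, and in H2-D1 171 and 101 bases before it. RefSeq gave 2 windows for H2-K1, and the one with the outermost start was used. The distances depend on the start used, so they do not compare where the motifs sit in the promoters of H2-K1 and H2-D1. Exact matches to the core of the interferon-stimulated response element, found in 3.44% of windows, were in the H2-T23 and B2m windows. The H2-T23 match lies on the opposite strand and is printed as TTTCTCTTTC. The H2-K1 and H2-D1 windows had no exact match to this core, but near matches were not searched for. CCAAT, found in 37.4% of all windows, was in all 5 windows shown. Of the other class I presentation genes, the Psmb8 window held a GAS motif, TTCCCAGAA, beginning 97 bases before the start, which 8.3% of windows hold. The Psmb9 and Tap1 windows are opposite strands of 1 stretch with 275 bases in common, since the genes start back to back, and a single CCAAT was the only match in each. The Tapbp window held only CCAAT, in 2 places. Windows of Tap2 and Nlrc5 were not used here. A match of letters does not show that a factor binds there, and the lack of an exact match does not show that an element is absent.

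Total reads per library ran from 49802305 to 147747191, and each of the 10 genes had between 486 and 101118 reads in a library. Levels are given in CPM, counts relative to library size after scaling by the trimmed mean of M values (TMM), and ± is the SD over 4 libraries. Ogt (chromosome X, 100683666 to 100727957) stood at 159, 118, 118 and 108 CPM in control replicates 3, 4, 5 and 6 and at 74.4, 47.2, 41.7 and 36 CPM in knockdown replicates 2, 3, 4 and 5 (log2 fold change -1.34, SE 0.23, edgeR adjusted p = 0.00243). The dopamine neuron markers of the label were present in every library, and Th ranged from 435 to 1241 CPM in the control and from 180.1 to 282.4 CPM in the knockdown. The summed level of 7 such markers was 1128 to 2483 CPM in the control and 328 to 524 CPM in the knockdown, and all 7 fell. Microglial markers went the other way: their sum was 28.6 to 48.5 CPM in the control and 54.3 to 151 CPM in the knockdown, and 8 of 10 rose. Control replicate 3 stood apart from its group, with a sum of 925 CPM over 7 endothelial markers against 10.8 to 17.5 CPM in the other controls and 26.7 to 43.2 CPM in the knockdown. For many results that move with that library or with knockdown replicate 3, values with and without it are given. Gene positions are on the build of the count table's annotation (GRCm39).

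H2-K1 (ENSMUSG00000061232.17, chromosome 17, 34214991 to 34219321, minus strand) encodes 1 of the classical heavy chains, which present peptides to CD8 T cells. Its level in control replicates 3, 4, 5 and 6 was 184, 129, 223 and 184 CPM, and in knockdown replicates 2, 3, 4 and 5 it was 505, 973, 419 and 556 CPM. The lowest knockdown library lay well above the highest control, and knockdown replicate 3 was the highest of all. The mean went from 179.9 ± 38.5 to 613 ± 246 CPM, a 3.41-fold rise (log2 fold change 1.77, SE 0.27, edgeR adjusted p = 0.00148). Without knockdown replicate 3 the fold was 2.74 (edgeR adjusted p = 0.00112).

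H2-D1 (ENSMUSG00000073411.13, chromosome 17, 35481706 to 35486475, plus strand), the other classical heavy chain gene measured, stood at 269, 266, 434 and 362 CPM in the control libraries in the same order. The knockdown libraries had 794.5, 1180, 781 and 944 CPM. Again no library of either group reached into the other, and control replicate 5 was the highest control. H2-D1 rose 2.78-fold from 333 ± 81.15 to 925 ± 185.5 CPM (log2 fold change 1.48, SE 0.21, edgeR adjusted p = 0.00101), and 2.53-fold without knockdown replicate 3 (edgeR adjusted p = 0.00168).

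H2-T23 (ENSMUSG00000067212.9, chromosome 17, 36340665 to 36343747, minus strand) encodes Qa-1, a non-classical heavy chain that presents signal peptides of other class I chains to the CD94/NKG2 receptors. Control libraries had 67.3, 65.6, 105 and 85 CPM of it. In the knockdown libraries it was at 164.5, 413, 178 and 255 CPM. The groups did not overlap, and knockdown replicate 3 was 2.32 times the median of the other knockdown libraries. The gene rose 3.13-fold, from 80.8 ± 18.5 to 253 ± 114 CPM (log2 fold change 1.65, SE 0.29, edgeR adjusted p = 0.00308). Its fold without knockdown replicate 3 was 2.47 (edgeR adjusted p = 0.00299).

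B2m (ENSMUSG00000060802.9, chromosome 2, 121978167 to 121983564, plus strand) is the only one of the 10 besides Nlrc5 that lies outside chromosome 17, and encodes the light chain that every class I heavy chain needs to reach the surface. The control libraries varied widely, at 188, 358, 626 and 498 CPM, with control replicate 3 the lowest. The knockdown libraries lay close together, at 994, 972, 920 and 1168 CPM, and here replicate 5, not 3, was the highest. B2m rose 2.43-fold, from 417.5 ± 188 to 1013 ± 107 CPM (log2 fold change 1.28, SE 0.31, edgeR adjusted p = 0.0121). Leaving out control replicate 3 lowered the fold to 2.05 (edgeR adjusted p = 0.00265), and leaving out knockdown replicate 3 gave 2.46 (edgeR adjusted p = 0.0286).

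The proportion of heavy to light chain message did not differ beyond the spread of all 8 libraries. The ratio of H2-K1 plus H2-D1 to B2m, in reads per kilobase of exon within each library, was 0.764, 0.353, 0.335 and 0.351 in control replicates 3, 4, 5 and 6. It was 0.415, 0.698, 0.417 and 0.409 in knockdown replicates 2, 3, 4 and 5. In each group the library numbered 3 stood far above its 3 companions, so the groups overlapped. The log2 difference was 0.16 (exact two-sided permutation p = 0.486, the same after adjustment over 5 ratios). Without control replicate 3 the groups no longer overlapped and the log2 difference was 0.45 (exact two-sided permutation, adjusted p = 0.0571, the smallest p that 4 libraries against 3 allow). Without knockdown replicate 3 it was -0.03 (exact two-sided permutation p = 0.914). Without both libraries numbered 3 the log2 difference was 0.26 and the groups did not overlap (exact two-sided permutation p = 0.1). That is the smallest p that 3 libraries against 3 allow.

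**Figure D1:**
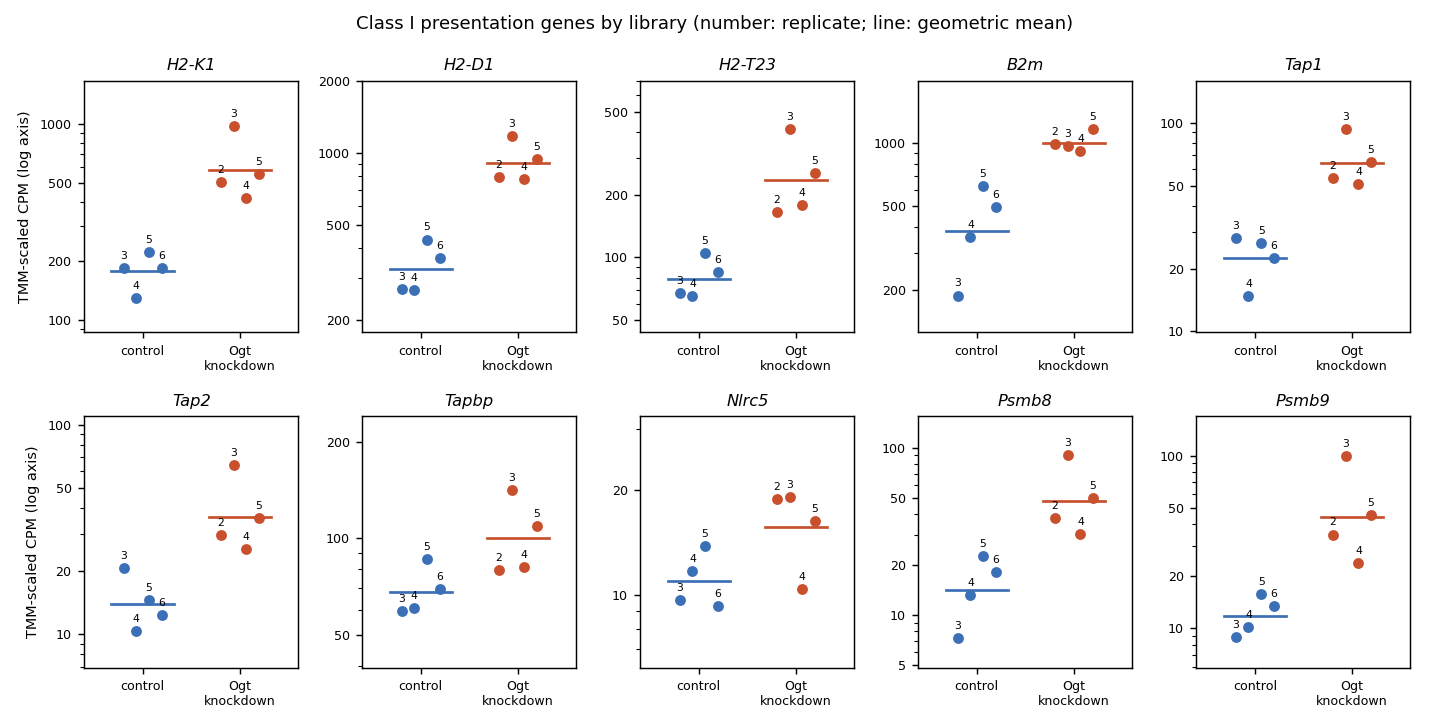
Level of each of the 10 class I presentation genes in TMM-scaled CPM (log axis) in the 4 control (blue) and 4 Ogt knockdown (orange) libraries, numbered by replicate, with lines at the geometric mean. Knockdown points lie above all control points in 8 panels and overlap with them for Tapbp and Nlrc5, and knockdown replicate 3 is the highest knockdown point in 9 of the 10.

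Tap1 and Tap2 encode the 2 chains of the transporter that brings peptides into the endoplasmic reticulum. Tap1 (ENSMUSG00000037321.18, chromosome 17, 34406527 to 34416199, plus strand) was at 28.2, 14.8, 26.65 and 22.55 CPM in the control libraries and at 54.6, 93.4, 50.9 and 65.3 CPM in the knockdown libraries. All knockdown values lay above all control values. It rose 2.86-fold, from 23.05 ± 5.965 to 66 ± 19.2 CPM (log2 fold change 1.52, SE 0.24, edgeR adjusted p = 0.00192), and without knockdown replicate 3 the fold was 2.47 (edgeR adjusted p = 0.00307).

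Tap2 (ENSMUSG00000024339.13, chromosome 17, 34422501 to 34435295, plus strand) had 20.6, 10.4, 14.6 and 12.3 CPM in the control libraries, of which replicate 3 was the highest. Knockdown libraries had 29.9, 64.4, 25.4 and 35.7 CPM. The gap between the groups was narrow, from 20.6 CPM in control replicate 3 to 25.4 CPM in knockdown replicate 4, but no values crossed. Tap2 rose 2.685-fold (log2 fold change 1.43, SE 0.31, edgeR adjusted p = 0.00799). Its fold was 2.10 without knockdown replicate 3 (edgeR adjusted p = 0.0103) and 3.11 without control replicate 3 (edgeR adjusted p = 0.00251).

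Tapbp (ENSMUSG00000024308.16, chromosome 17, 34134873 to 34148266, plus strand) encodes tapasin, which holds empty heavy chains at the transporter and edits the peptides they take up. Control libraries stood at 59.3, 60.7, 86.4 and 69.4 CPM and knockdown libraries at 79.97, 141, 81.4 and 109.6 CPM. Knockdown replicates 2 and 4 lay below control replicate 5, so the groups overlapped. The means were 68.95 ± 12.4 and 103 ± 28.8 CPM, and the difference did not pass (log2 fold change 0.58, SE 0.20, edgeR adjusted p = 0.0575). It passed with upper quartile scaling (0.037), the strict filter (0.043), DESeq2 (0.0323) and without control replicate 5 (0.0444), all adjusted p-values, and its direction was the same under all 16 alternatives.

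Psmb8 and Psmb9 encode catalytic subunits that replace Psmb5 and Psmb6 of the constitutive proteasome core to form the immunoproteasome, which cuts peptides better suited to class I. Psmb8 (ENSMUSG00000024338.16, chromosome 17, 34416695 to 34420428, plus strand) stood at 7.27, 13.15, 22.7 and 18.2 CPM in the control and 37.9, 90.6, 30.6 and 50.2 CPM in the knockdown libraries. The groups were apart, with control replicate 3 lowest and knockdown replicate 3 highest. Psmb8 rose 3.41-fold, from 15.3 ± 6.63 to 52.3 ± 26.8 CPM (log2 fold change 1.77, SE 0.41, edgeR adjusted p = 0.0118). Its fold without knockdown replicate 3 was 2.58 (edgeR adjusted p = 0.0236). The call was lost when no filter on low counts was used (edgeR adjusted p = 0.059).

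Psmb9 (ENSMUSG00000096727.4, chromosome 17, 34400961 to 34406738, minus strand) had the largest fold of the 10 over all 8 libraries. Its control values were 8.88, 10.15, 15.7 and 13.45 CPM, and its knockdown values were 34.9, 99, 23.8 and 45.5 CPM. Knockdown replicate 3 was 2.84 times the median of the other knockdown libraries, and the remaining knockdown values still lay above every control. The rise was 4.21-fold, from 12.05 ± 3.11 to 50.8 ± 33.35 CPM (log2 fold change 2.07, SE 0.41, edgeR adjusted p = 0.00598), and without knockdown replicate 3 it was 2.88-fold (edgeR adjusted p = 0.00379). With both libraries numbered 3 left out, the log2 fold change was 1.40 for Psmb9 (edgeR adjusted p = 0.00325) and 1.13 for Psmb8 (edgeR adjusted p = 0.00642). H2-K1 (1.46) and Tap1 (1.41) were then above Psmb9.

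Measured within each library, the immunoproteasome subunits rose against the subunits they replace. Psmb8 to Psmb5, in reads per kilobase, was 0.0128, 0.0303, 0.0485 and 0.0384 in the control libraries and 0.175, 0.194, 0.1095 and 0.147 in the knockdown libraries. The lowest knockdown ratio was more than the highest control ratio, and the geometric mean was 5.24 times higher. Psmb9 to Psmb6 was 0.017, 0.0275, 0.0407 and 0.0338 in the control and 0.131, 0.187, 0.074 and 0.128 in the knockdown, 4.36 times higher in geometric mean. Psmb10, the third immunoproteasome subunit, was already above the subunit it replaces in the control: Psmb10 to Psmb7 was 1.19, 1.604, 1.66 and 1.74 there. In the knockdown it was 2.97, 6.45, 2.49 and 2.90, a geometric mean 2.24 times higher. Each of the 3 ratios had the smallest p that 4 libraries against 4 allow (exact two-sided permutation p = 0.0286, 0.0357 adjusted over 5 ratios). Without knockdown replicate 3 the log2 difference of Psmb10 to Psmb7 was 0.86, against 1.16 with it.

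**Figure D2:**
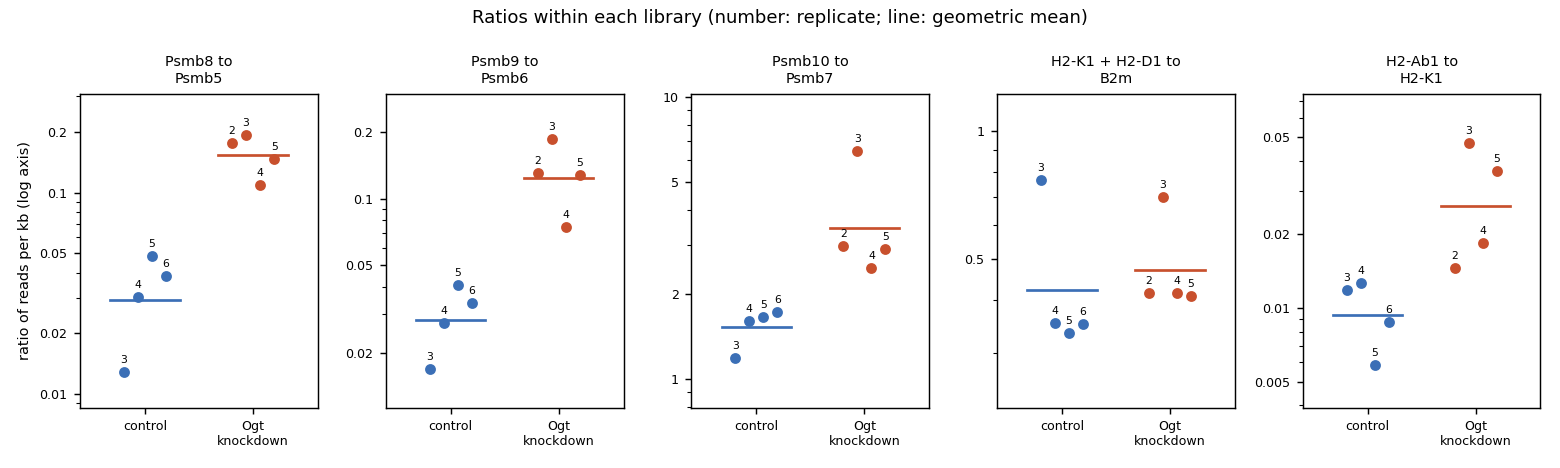
Ratio of reads per kilobase of exon between 2 genes (or the sum of 2 heavy chains and B2m) within each library, on log axes, for control (blue) and Ogt knockdown (orange) libraries, numbered by replicate, with lines at the geometric mean. The 3 immunoproteasome ratios and H2-Ab1 to H2-K1 are higher in all knockdown libraries, while the heavy to light chain ratio overlaps, with both libraries numbered 3 on top.

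Of 14 subunits of the constitutive proteasome core, 0 rose (also 0 at an unadjusted p below 0.05 in edgeR, and by DESeq2 and limma-voom), 5 fell and 9 did not pass, with a median log2 fold change of -0.43. Of all genes tested, 15.1% fell. Psma5 fell 1.63-fold (log2 fold change -0.70, SE 0.15, edgeR adjusted p = 0.00725) and Psma1 1.6-fold (log2 fold change -0.68, SE 0.17, edgeR adjusted p = 0.0143), and both calls held with any library left out. The calls of Psma2, Psma7 and Psmb7 did not (edgeR adjusted p between 0.0518 and 0.112), and leaving out any 1 of the 8 libraries ended at least 1 of them. With upper quartile scaling 2 of the 14 fell, without knockdown replicate 3 the number was 8, and without both libraries numbered 3 it was 11. Psmb5 was at 129 ± 15.1 CPM in the control and 86.7 ± 28.5 CPM in the knockdown (edgeR adjusted p = 0.0704), and Psmb6 at 215 ± 35.85 and 188 ± 58.4 CPM (edgeR adjusted p = 0.545), and neither passed. Psmb5 was called lower without knockdown replicate 3 (log2 fold change -0.80, edgeR adjusted p = 0.00827), without both libraries numbered 3, with no filter and by limma-voom, and Psmb6 without both libraries numbered 3 (edgeR adjusted p = 0.0281).

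Nlrc5 (ENSMUSG00000074151.14, chromosome 8, 95160984 to 95253900, plus strand) encodes the transactivator that acts at the promoters of class I genes. Control libraries had 9.68, 11.7, 13.8 and 9.27 CPM and knockdown libraries 18.8, 19.1, 10.4 and 16.3 CPM. Knockdown replicate 4 lay within the control range and the other 3 above it. The means were 11.1 ± 2.09 and 16.1 ± 4.05 CPM, and the difference did not pass (log2 fold change 0.54, SE 0.22, edgeR adjusted p = 0.0959). It passed without knockdown replicate 4 (edgeR adjusted p = 0.0351).

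Of 27 tested genes for other regulators of class I and their signalling, 8 rose, 3 fell and 16 did not pass, with a median log2 fold change of 0.28. Over all genes tested, 13.4% rose and 15.1% fell. Irf1, a transcription factor that binds interferon response elements, stood at 10.88, 6.08, 10.08 and 7.50 CPM in the control and 23.5, 54.4, 16.2 and 34.9 CPM in the knockdown libraries. The groups did not overlap, and Irf1 rose 3.73-fold (log2 fold change 1.90, SE 0.35, edgeR adjusted p = 0.00384). Its log2 fold change was 1.525 without knockdown replicate 3 (edgeR adjusted p = 0.00569). Irf8, which myeloid cells including microglia are known to express, was at 1.3, 1.315, 1.23 and 1.03 CPM in the control and 10.15, 23.2, 4.56 and 14.3 CPM in the knockdown, and rose 10.7-fold (edgeR adjusted p = 0.00069). Irf7, which amplifies the type I interferon response, rose 2.45-fold (edgeR adjusted p = 0.00069), and Socs1, a feedback inhibitor of JAK kinases, 3.1-fold (edgeR adjusted p = 0.00657). Jak2 rose 1.69-fold (edgeR adjusted p = 0.00257) and Atf1 1.77-fold (edgeR adjusted p = 0.00721).

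Rfx5, whose product binds the X box of MHC promoters together with NLRC5, fell 1.65-fold (edgeR adjusted p = 0.0198), as did Creb1 (1.3-fold) and Jak1 (1.385-fold). These 3 calls ended when 1 library was left out (edgeR adjusted p between 0.0512 and 0.12), for at least 1 of the genes with every library but knockdown replicate 3. The call of Irf2 (edgeR adjusted p = 0.0377) also ended when any library other than the pair numbered 3 was left out. The ligand genes were at the edge of detection: Ifng had 0 reads in all 4 controls and in 2 knockdown libraries, with 0.181 CPM at most, and Ifnb1 did not exceed 0.118 CPM. Neither was tested. A count of 3 reads, the floor used, is worth 0.0212 to 0.0626 CPM here, for counting error only.

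**Figure D3:**
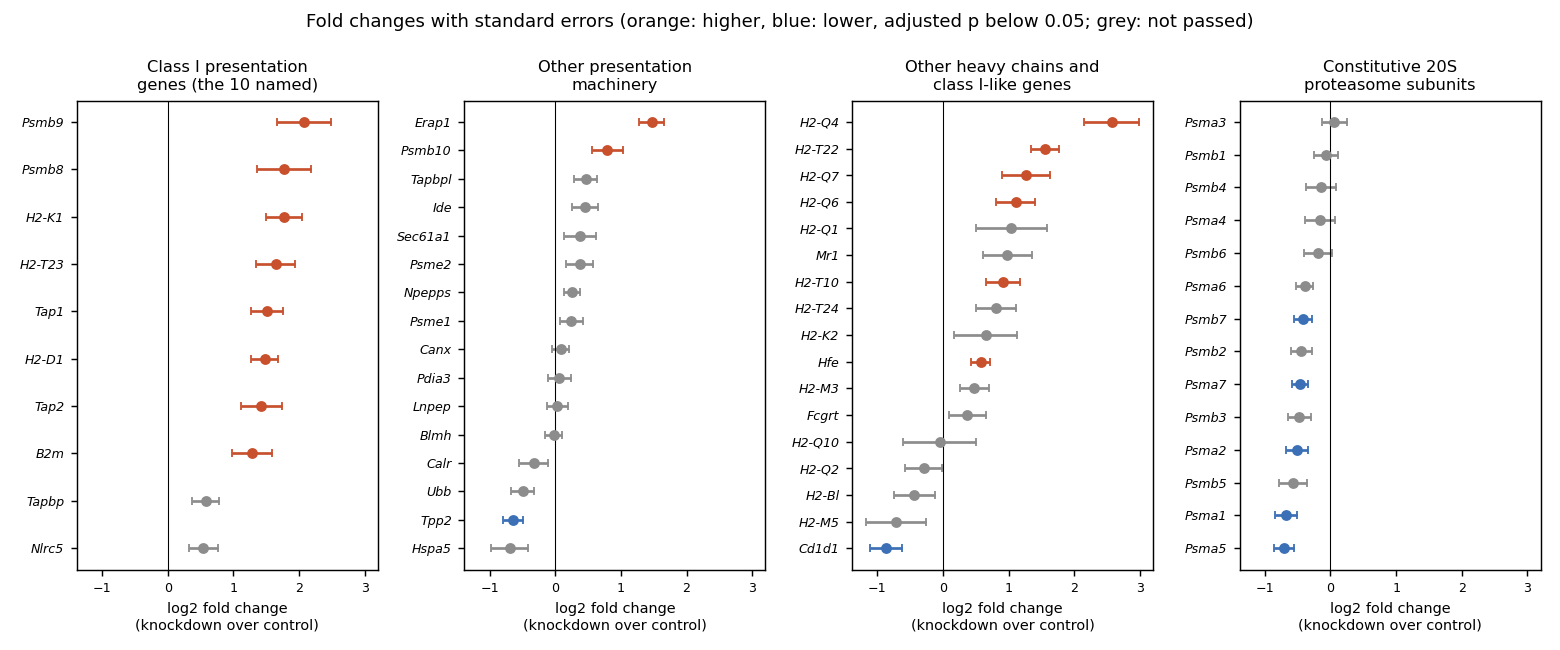
Log2 fold change, Ogt knockdown over control, with standard errors from edgeR, for the 10 class I presentation genes and 3 related lists (orange, higher; blue, lower; grey, not passed at an adjusted p of 0.05). All 10 presentation genes lie to the right of 0 and 8 pass, while 5 of the 14 constitutive proteasome subunits pass on the left.

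Per kilobase of exon, the order of levels among the 10 genes was nearly the same in both groups. In the control, B2m was highest at 485 ± 219 CPM per kb, followed by H2-D1 at 129 ± 31.5, H2-K1 at 61.25 ± 13.1, H2-T23 at 27.95 ± 6.39 and Tapbp at 19 ± 3.43 CPM per kb. Psmb8 (4.53 ± 1.96), Tap1 (4.21 ± 1.09), Tap2 (3.825 ± 1.18) and Psmb9 (3.29 ± 0.85 CPM per kb) came next. The ranges of mean ± SD of these 4 neighbours overlapped. Nlrc5 was lowest at 1.31 ± 0.246 CPM per kb. In the knockdown, B2m stood at 1178 ± 125, H2-D1 at 359 ± 71.9, H2-K1 at 209 ± 83.85 and H2-T23 at 87.45 ± 39.5 CPM per kb. Tapbp was at 28.4 ± 7.95 and Nlrc5 at 1.9 ± 0.477 CPM per kb. Psmb8 (15.5 ± 7.92), Psmb9 (13.9 ± 9.11), Tap1 (12.1 ± 3.51) and Tap2 (10.3 ± 4.64 CPM per kb) again had overlapping ranges, with Psmb9 now second of the 4.

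Within each group the same libraries tended to be high or low for the 10 genes. Knockdown replicate 3 was the highest knockdown library for 9 of them and knockdown replicate 4 the lowest for 8. The excess of knockdown replicate 3 over the median of the other knockdown libraries was greatest for Psmb9 (2.84 times), Psmb8 (2.39 times), H2-T23 (2.32 times) and Tap2 (2.16 times), and absent for B2m (0.979 times). Among the controls, replicate 5 was the highest for 8 genes. The microglial marker sum was 151 CPM in knockdown replicate 2, 138 CPM in replicate 3, 72 CPM in replicate 5 and 54.3 CPM in replicate 4, and the single microglial genes Aif1 and C1qa were highest in replicate 3. The summed markers of T cells, natural killer cells, B cells, and monocytes and neutrophils were each highest in knockdown replicate 3, and the first 3 of these sums were lowest in replicate 4. The T cell sum was mostly Trac, which was highest in replicate 2, and Lck, which was highest in replicate 3. The part of these markers in the order of the libraries was not tested.

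Overlapping and similar genes touch some of these counts, which were made without strand. Tap1 and Psmb9 share 212 exon bases on opposite strands, 3.87% of the exon bases of Tap1 and 5.79% of those of Psmb9, so reads there cannot be given to either gene. Psmb8 shares 14.7% of its exon bases with Gm20496, which had 0 reads in all 8 libraries, and Tapbp shares 29% with Gm19412 and 149 bases with Zbtb22. Heavy chain genes resemble each other: 9.63% of the 50-base stretches of H2-K1 transcripts, 12.8% of those of H2-D1 and 14.5% of those of H2-T23 also occur in transcripts of another gene. Reads with several alignments were not counted. B2m shared no such stretch.

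Of 16 further genes of the presentation machinery, 2 rose, 1 fell and 13 did not pass, with a median log2 fold change of 0.16. Of all genes tested, 13.4% rose and 15.1% fell. Erap1, the aminopeptidase that trims peptides in the endoplasmic reticulum, stood at 14, 15.7, 20.6 and 18.8 CPM in the control and 62.6, 40.9, 49.3 and 38.7 CPM in the knockdown libraries. Here knockdown replicate 2 was highest and replicate 3 near the lower end, whereas replicate 3 was highest for 9 of the 10 genes above. Erap1 rose 2.77-fold (log2 fold change 1.47, SE 0.19, edgeR adjusted p = 0.000766). Psmb10 rose 1.73-fold from 113 ± 15 to 196 ± 74.9 CPM (log2 fold change 0.79, SE 0.23, edgeR adjusted p = 0.0305), a call that ended without control replicate 4 (0.0808), control replicate 6 (0.068) or knockdown replicate 5 (0.0679), by edgeR adjusted p. Tpp2, a cytosolic peptidase, fell 1.56-fold (log2 fold change -0.65, SE 0.16, edgeR adjusted p = 0.0132). The chaperones of the loading complex, Calr, Canx and Pdia3, were among the 13 that did not pass, as were the proteasome activator genes Psme1 and Psme2.

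Among 24 other heavy chain and class I-like genes, 17 had enough reads to be tested, and of these 6 rose, 1 fell and 10 did not pass. The shares over all genes tested were 13.4% higher and 15.1% lower. H2-Q4 stood at 38.3, 27.3, 57.35 and 44.6 CPM in the control and 201, 492, 142 and 162 CPM in the knockdown libraries, with no overlap and knockdown replicate 3 far above the rest. It rose 5.945-fold (log2 fold change 2.57, SE 0.42, edgeR adjusted p = 0.00244), with a log2 fold change of 2.00 without knockdown replicate 3 (edgeR adjusted p = 0.000948). Of its 50-base stretches 36.4% occur in another gene, most often in H2-K1. H2-T22 rose 2.93-fold, from 79.9 ± 15.55 to 234 ± 68 CPM (log2 fold change 1.55, SE 0.21, edgeR adjusted p = 0.00098). The calls of H2-Q6 (2.16-fold), H2-Q7 (2.4-fold), H2-T10 (1.88-fold) and the iron regulator Hfe (1.49-fold) ended when 1 library was left out (edgeR adjusted p between 0.0508 and 0.083), which was so for 1 or more of them with every library but control replicate 3. Cd1d1, which presents lipids, was 1.825-fold lower, and its call ended on leaving out 1 library, either control 4 or 6 or knockdown 4 or 5 (edgeR adjusted p between 0.0586 and 0.0773).

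Genes listed as receptors for class I molecules were nearly undetected. Of 13 listed, 3 could be tested and 0 passed in edgeR, also 0 at an unadjusted p below 0.05, with 0 by DESeq2 and 1 by limma-voom. Cd8a averaged 0.223 CPM in the control and 0.313 CPM in the knockdown, and Pirb, a class I receptor of neurons and myeloid cells, 0.444 and 0.6635 CPM (edgeR adjusted p = 0.675). With control replicate 3 left out, edgeR called 1 tested gene of this list higher, Lilrb4a (log2 fold change 2.64, edgeR adjusted p = 0.0403). Binding of the listed receptors to class I was not tested.

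Class II genes, which present peptides from outside the cell and mark professional antigen-presenting cells, rose alongside. Of 8 tested, 6 rose and 2 did not pass, beside 13.4% of all genes tested that rose. The call of H2-DMb1 was lost without control replicate 4, control replicate 6, knockdown replicate 3 or knockdown replicate 5 (edgeR adjusted p from 0.0511 to 0.071), and the other 5 held with any library left out. H2-Ab1 was at 1.895, 1.42, 1.135 and 1.4 CPM in the control and 6.44, 40.1, 6.74 and 17.6 CPM in the knockdown libraries, a 12.1-fold rise (log2 fold change 3.598, SE 0.60, edgeR adjusted p = 0.00257) that was 2.81 on the log2 scale without knockdown replicate 3. H2-Aa rose 17.9-fold (log2 fold change 4.16, and 3.31 without knockdown replicate 3) and Cd74 8.91-fold (log2 fold change 3.16, and 2.39 without that library). H2-Eb1 rose 4.75-fold (log2 fold change 2.247, and 1.759 without that library). The ratio of H2-Ab1 to H2-K1, per kilobase, was 0.0118, 0.0127, 0.00586 and 0.00873 in control replicates 3, 4, 5 and 6 and 0.0146, 0.0471, 0.0184 and 0.0363 in knockdown replicates 2, 3, 4 and 5. All knockdown ratios lay above all control ratios, and the geometric mean was 2.78 times higher (exact two-sided permutation p = 0.0286, adjusted p = 0.0357). Even so, H2-K1 stayed far above H2-Ab1 per kilobase in every library. Ciita, the class II transactivator and relative of Nlrc5, was at 0.637 ± 0.2595 and 0.961 ± 0.3875 CPM and did not pass (edgeR adjusted p = 0.39).

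On chromosome 17, 8 of the 10 genes lie between Tapbp and H2-T23 (34134873 to 36343747, 2.21 Mb). Of 126 genes tested in this interval, 36 rose (28.6%, against 13.4% of all genes tested) and 16 fell. The 8 presentation genes gave 7 of the 36, class II genes 5 and other class I heavy chains 3. The remaining 104 genes, on none of the class I and class II lists, had 21 higher, 16 lower and 67 not passed, a share of 20.2% higher, and a median log2 fold change of -0.013. The microglial marker Aif1 was 1 of these 21. A class II gene outside the list, H2-Eb2, was also among the 104 and lay below 0 (log2 fold change -1.43, SE 0.55, edgeR adjusted p = 0.076). The interval was described after the data were seen, and neighbouring genes are not independent of each other.

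**Figure D4:**
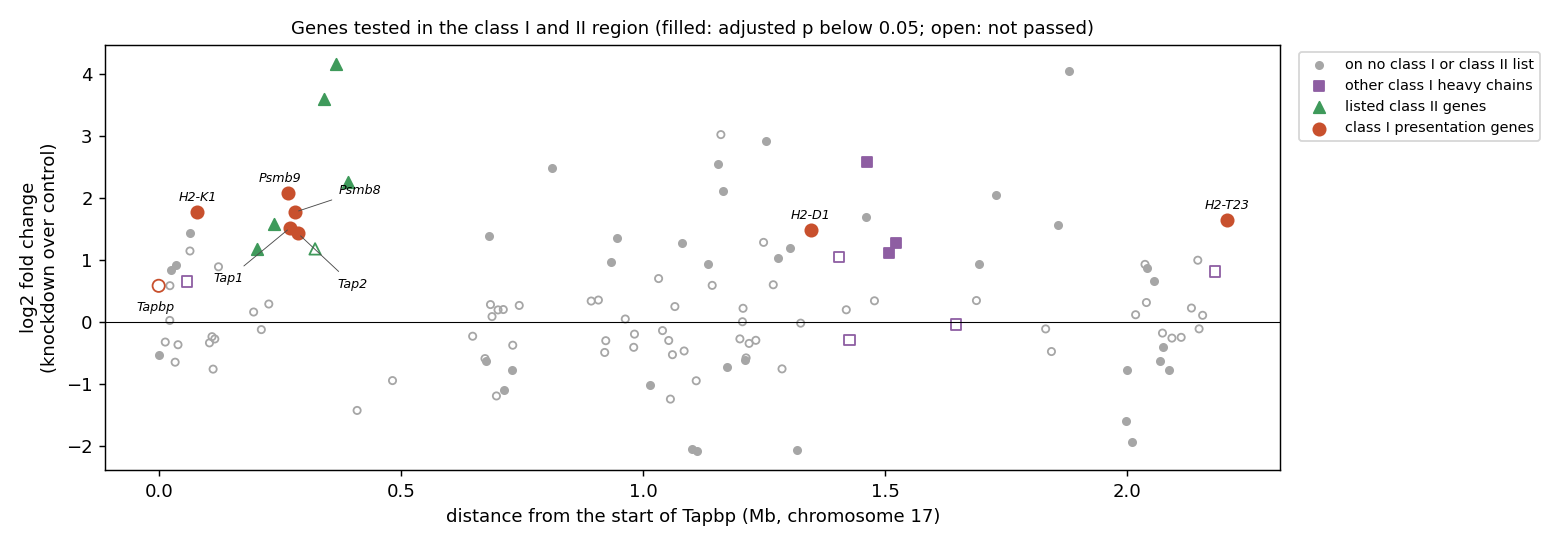
Log2 fold change of the 126 genes tested on chromosome 17 against distance from the start of Tapbp in Mb, with class I presentation genes (circles, named), listed class II genes (triangles), other class I heavy chains (squares) and genes on no class I or class II list (small grey circles), filled where the adjusted p was below 0.05. The named presentation genes and the listed class II genes lie above 0, and the genes on neither list fall on both sides with a median of -0.013.

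Markers of other cells moved with the class I genes, and the counts below stand beside 13.4% higher and 15.1% lower of all genes tested. Of 10 microglial markers, 8 rose, among them C1qa, from 8.88, 2.55, 2.67 and 2.74 CPM in the control to 39.2, 60.7, 10.3 and 18.1 CPM in the knockdown libraries, and Tyrobp, 9.98-fold (edgeR adjusted p = 0.00117). Csf1r was among those that did not pass. The summed level of 8 astrocyte markers was 665 to 3790 CPM in the control and 7889 to 11980 CPM in the knockdown, with 3 of 8 higher. Control replicate 3 had the 665 CPM, and the other controls were at 2244 to 3790 CPM. Gfap, which averaged 1162 CPM in the control and 7270 CPM in the knockdown, made up most of the knockdown sum. For 7 oligodendrocyte markers the sum was 1045 to 1624 and 1689 to 4187 CPM, with 4 of 7 higher. The 5 neuronal markers summed to 4764 to 6008 CPM in the control and 1901 to 2455 CPM in the knockdown, and 5 of 5 fell.

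Blood cell markers were low throughout. The T cell marker sum was 8.56 to 12.4 CPM in the control and 16.9 to 23.8 CPM in the knockdown, and 2 of the 6 tested rose, Trac and Lck. These 2 genes made up most of the sum. Trac averaged 3.83 CPM in the control and 10.6 CPM in the knockdown, and Lck 4.8 and 7.8 CPM. Cd4 averaged 0.313 and 0.319 CPM, and Cd2 0.317 and 0.258 CPM. The T cell receptor subunit genes differed among themselves. Cd3e averaged 0.213 CPM in the control and 0.153 CPM in the knockdown, and Cd3g averaged 0.0525 and 0.444 CPM (log2 fold change 3.02, unadjusted p = 0.0187, edgeR adjusted p = 0.0609). Cd3d had too few reads to test and averaged 0.0103 and 0.6455 CPM, with every knockdown library above every control. Monocyte and neutrophil markers summed to 0.271 to 1.27 CPM in the control and 0.931 to 4.85 CPM in the knockdown, with 0 of 3 tested called by edgeR and 1 of them, Plac8, higher at an unadjusted p below 0.05. Natural killer cell markers summed to 0.113 to 0.568 and 0.293 to 1.63 CPM, and B cell markers to 0 to 0.568 and 0.586 to 1.59 CPM. The B cell marker Cd79a was higher at an unadjusted p of 0.0438 (log2 fold change 1.89, edgeR adjusted p = 0.113). The neutrophil marker Ly6g and the natural killer marker Ncr1 had 0 reads in all 8 libraries. Endothelial markers, whose cells are known for high class I levels, summed to more in control replicate 3 than in any knockdown library, and edgeR called 0 of 7, also at an unadjusted p below 0.05. The other controls, at 10.8 to 17.5 CPM, lay below every knockdown library (26.7 to 43.2 CPM). These markers were not tested without control replicate 3. The part of these cell types in the class I result was not tested.

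**Figure D5:**
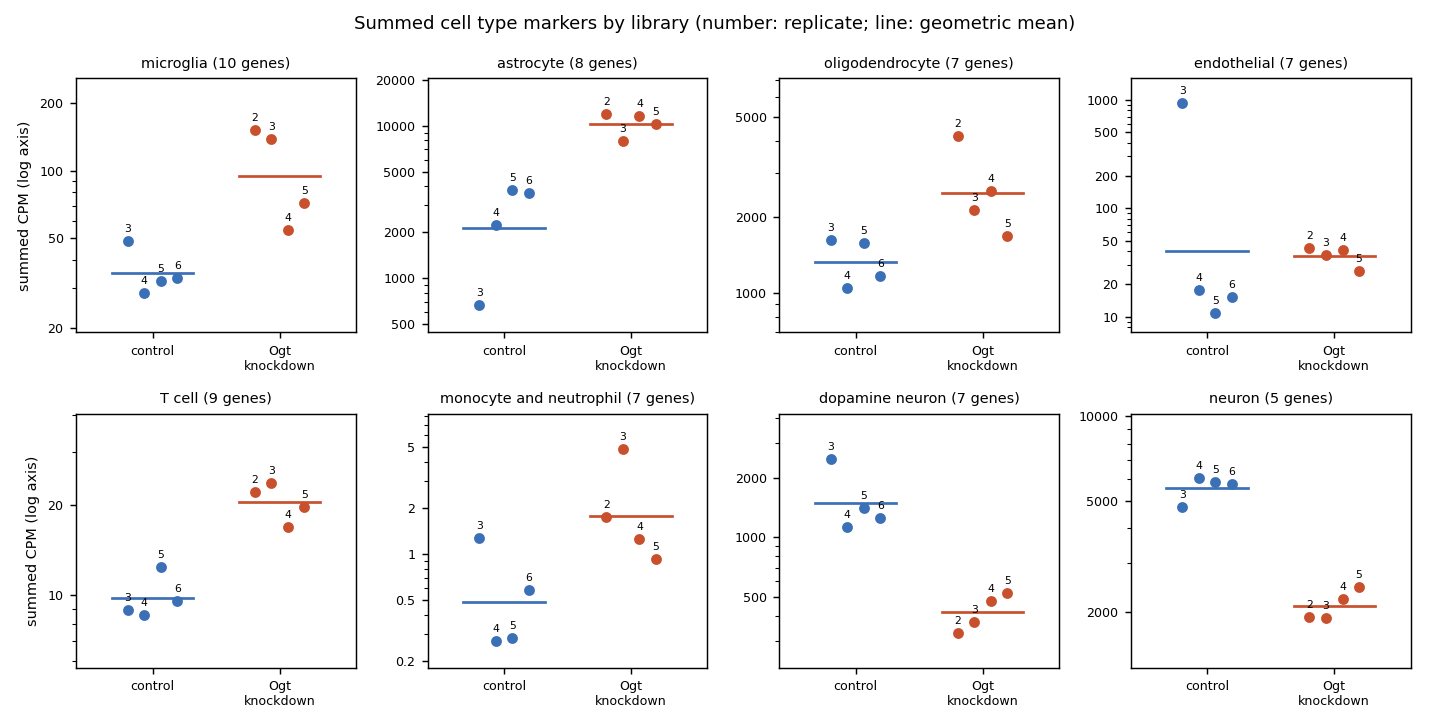
Summed TMM-scaled CPM (log axis) of fixed marker lists for 8 cell types in the control (blue) and Ogt knockdown (orange) libraries, numbered by replicate, with lines at the geometric mean. Microglial, astrocyte, oligodendrocyte and T cell sums are higher in all knockdown libraries, the T cell sum being mostly Trac and Lck. Dopamine neuron and neuron sums are lower in all knockdown libraries, and control replicate 3 stands apart for endothelial markers.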

How the data were processed

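Ribosome-associated mRNA of the mouse ventral tegmental area was sequenced in 4 Ogt knockdown and 4 control libraries, grouped by the genotype in their labels. The deposited table holds whole-number read counts per gene, made with featureCounts 2.0.3 over exons of GENCODE vM30 (GRCm39) per the file headers, with no option for strand, pairs or reads with several alignments. Per the submitters' processing notes, reads passed through FastQC, Trimmomatic and STAR with build mm10, and the conflict of mm10 with GRCm39 was not resolved. Of 56691 gene IDs, 52073 matched a symbol in GENCODE M21.

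From these counts, genes were filtered with filterByExpr, scaled by TMM and tested with edgeR 4.0.16 (robust glmQLFit and glmQLFTest, two-sided, R 4.3.3), with Benjamini-Hochberg adjustment over 19912 genes and a threshold of 0.05. The standard error is the log2 fold change divided by the root of the F statistic. Ratios used counts per exon length with 0.5 added and an exact permutation test over the 70 assignments. The alternatives were scaling by RLE or the upper quartile, testing all genes unfiltered, keeping only genes with a CPM of 1 or more in 4 libraries (the strict filter), DESeq2 1.42.0, limma-voom 3.58.1 with sample quality weights, the replicate number as a block, an added count of 5 for ratios, and leaving out each library or both libraries numbered 3. Tests were tried on simulated data with known changes. Libraries of 1 group differed beyond sampling noise (chi-square per degree of freedom 22.9 to 420), so none was a duplicate.

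The genes and lists were chosen with earlier results of these data known. The rule for names takes all 10 genes, up to 6 genes with the smallest p of each list, exceptions to a count, genes of the ratios and the markers that check a label. Promoters came from RefSeq (GRCm38.p6), and shared stretches were counted in GENCODE M21 transcripts.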

Additional observations from a re-analysis of the deposited data

Results flagged for a closer look

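Among 30 groups of 4 libraries examined, 3 held 1 library farther from its companions than Dixon's 95% critical value, which chance alone exceeds in about 1 in 20 groups. The ratio of H2-K1 plus H2-D1 to B2m was 0.764 in control replicate 3, against 0.335 to 0.353 in the other controls (Dixon's Q 0.959), and this library also had the lowest B2m level of all 8, at 188 CPM. The same ratio was 0.698 in knockdown replicate 3, against 0.409 to 0.417 in the other knockdown libraries (Q 0.973). The ratio of Psmb10 to Psmb7 was 6.45 in knockdown replicate 3, against 2.49 to 2.97 in the others (Q 0.877). The cause of these values was not tested.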

How the results depend on the processing

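Alternatives were run for the class I, regulator, receptor, proteasome and class II lists, the 5 ratios and the counts of genes, and no call among these changed direction. They were not run for the marker lists, Ogt or the other genes of the chromosome 17 interval. The 8 rises held under each scaling, the strict filter, DESeq2, limma-voom and with any 1 library left out, and without a filter Psmb8 alone did not pass (edgeR adjusted p = 0.059). The median log2 fold change of all genes was 0.002 with TMM, 0.022 with RLE and 0.091 with upper quartile scaling, and the higher share of calls was 46.9%, 48.9% and 56.6%. All 10 genes were above 0 in each.

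With the replicate number as a block, 5 of the 10 genes were higher (B2m, Psmb8 and Psmb9 lost, adjusted p = 0.0545, 0.0963 and 0.0688), among 1258 genes changed, 480 higher and 778 lower. Same-numbered libraries deviated together with correlations of 0.119, 0.148 and 0.065 across genes. Control replicates 3, 4 and 5 each correlated best with the knockdown library of their own number. Knockdown replicates 4 and 5 correlated best with control replicate 6 (0.156 and 0.154), which has no knockdown library of its number. Whether the numbers pair the libraries was not settled, and the main test did not pair them. The block left 1 machinery gene higher and 0 lower, 3 heavy chains higher and 0 lower, 3 regulators higher and 0 lower, and 0 core subunits lower.

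Limma-voom called 10208 genes (5229 higher, 4979 lower), with 5 machinery genes higher and 3 lower, 12 heavy chains, 13 regulators and 1 receptor higher, and 9 core subunits lower. Without both libraries numbered 3, edgeR called 9565 (4805 higher, 4760 lower), with 3 machinery genes lower, 11 heavy chains, 14 regulators and 1 receptor higher, and 11 core subunits lower. Upper quartile scaling left 1 regulator and 2 core subunits lower, no filter 0 heavy chains lower, and DESeq2 gave 2 machinery genes lower. The cause was not tested.

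With 1 library left out, genes changed ranged from 3876 to 7198 and genes higher from 1684 (without control replicate 4; 1736 without control replicate 6) to 3723. Machinery genes ranged from 1 to 3 higher and 1 to 2 lower, heavy chains from 2 (without control replicate 6) to 10 (without control replicate 3) higher and 0 to 1 lower, regulators from 0 to 3 lower, core subunits from 2 to 8 (without knockdown replicate 3) lower, and receptors from 0 to 1 higher.

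The log2 differences of the ratios ranged from 1.995 to 2.634 (Psmb8 to Psmb5), 1.88 to 2.371 (Psmb9 to Psmb6), 0.859 to 1.317 (Psmb10 to Psmb7), 1.192 to 1.755 (H2-Ab1 to H2-K1), and -0.029 (without knockdown replicate 3) to 0.445 (without control replicate 3) for H2-K1 plus H2-D1 to B2m, all short of the threshold since 4 libraries against 3 cannot go below p = 0.0571 by exact permutation. Without both libraries numbered 3 the first 4 were 1.88, 1.68, 0.74 and 1.30 (exact permutation, adjusted p = 0.1, the smallest possible). Depth limits the receptors and the interferon genes Ifng and Ifnb1, of which 9 and 2 had too few reads to test.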
